A study of Mus musculus with 12 samples.

Results

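The 10 genes described here, Atf4, Atf5, Ddit3, Cebpg, Trib3, Ddit4, Sesn2, Asns, Chac1 and Fgf21, belong to the Atf4 stress response. They were chosen by symbol, through the RefSeq accession that the array annotation gives for each probe. The rule uses no measured value, but earlier results of these data were known when the genes were chosen. The arrays carried 11 probes for them, 2 for Atf4 and 1 for each of the other genes, and all 10 genes were among the 16915 genes tested. Livers of 12 male C57BL/6 mice, 30 weeks old, were measured on single-colour arrays with Cy3-labelled RNA, 1 mouse per array. The 6 LKO mice were Alb+/Cre;Phgdh flox/flox, and the 6 Floxed mice were littermates with Phgdh flox/flox, so that the controls carried the loxP-flanked alleles without Cre. Cre is driven by the albumin promoter, so Phgdh, the first enzyme of serine synthesis, is targeted in hepatocytes, and the liver's other cells remain in the samples. All mice ate chow with 20% casein, and the labels name no other treatment.

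Atf4 is a bZIP transcription factor that is made when the kinases of the integrated stress response phosphorylate the translation factor eIF2, for instance when an amino acid is short or when unfolded protein accumulates in the endoplasmic reticulum. Its control lies largely in translation, so the level of its mRNA need not follow the amount of the protein, and its targets are the usual readout. It acts in pairs with C/EBP proteins on a composite site, the C/EBP-ATF response element, and its targets in liver include an amino acid synthetase, other transcription factors, inhibitors of growth signalling and a secreted hormone. The comparison asks whether these genes differ in liver when hepatocytes lack an enzyme that makes a non-essential amino acid.

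The element is shown first, because the results return to the genes that carry it. The letters TGATGNAA were searched on both strands of the RefSeq promoter windows of GRCm38.p6, each running from 250 bases before to 50 bases after the start of a gene. All 10 genes had a window, and 4 of them held a match, Asns, Chac1, Fgf21 and Trib3, while 4.51% of 27025 genes did. Each line below gives 30 bases around the match, read in the direction of the gene, with the matched letters in capitals.

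Asns: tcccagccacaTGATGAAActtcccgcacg

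Chac1: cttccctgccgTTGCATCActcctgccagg

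Fgf21: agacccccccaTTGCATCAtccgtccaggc

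Trib3: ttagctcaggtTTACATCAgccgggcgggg

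The stretch of Asns is chr6:7693214-7693243 on the minus strand, and its match lay 23 to 16 bases before the start, on the strand of the gene. In the other 3 genes the match was on the opposite strand. It lay 193 to 186 bases before the start in Chac1 (chr2:119351038-119351067, plus strand), 139 to 132 bases before it in Fgf21 (chr7:45615611-45615640, minus strand) and 15 to 22 bases after it in Trib3 (chr2:152344028-152344057, minus strand).  A match is a description of letters, and the binding of a factor was not measured here.

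The arrays lay on 3 slides. Floxed 1 to 4 were on slide 1 and LKO 3 to 6 on slide 3. Both genotypes met on slide 2, which carried Floxed 5, Floxed 6, LKO 1 and LKO 2. The number of probes well above background ran from 21614 to 24252 per array, and no probe of the 10 genes was below that mark on any array. Phgdh itself, whose measured probe was dim, ranged from 4.81 to 5.50 in Floxed and from 4.23 to 5.30 in LKO livers (log2 intensity), and differed by -0.48, which passed the unadjusted criterion used below (limma adjusted p = 0.451). On slide 2 the difference was -0.05, with LKO 1 and LKO 2 inside the Floxed range. Whether this probe lies in the deleted exons is not known here, so results that rest on these 2 mice are also given without them. Albumin and the other hepatocyte markers were present, with a summed intensity of 3030000 to 3220000 in Floxed and 3040000 to 3210000 in LKO livers, and 0 of 15 passed the test. Among markers of other cells, 1 of 12 endothelial genes (Pecam1) was called higher and 1 of 6 cholangiocyte genes (Cftr) lower, of which Pecam1 was not called with slide as a fixed term (0.04 on slide 2), and none of 11 macrophage, 9 lymphocyte, 12 stellate and fibroblast, 6 adipocyte and 9 blood genes was called. The summed intensity of the endothelial list was 23300 to 26100 in Floxed and 22500 to 31000 in LKO livers, and that of the cholangiocyte list 35000 to 45100 and 30900 to 45500. Of the uncalled lists, 10 of 11 macrophage, 7 of 9 lymphocyte and 8 of 9 blood genes were lower in LKO livers. Their median differences were -0.09, -0.19 and -0.33, but 0.08, 0.03 and 0.19 on slide 2. Stellate and fibroblast genes were 7 higher and 5 lower, and adipocyte genes 3 and 3. The part of these cell types in the results below was not tested. In whole liver, fewer cells of a type and less RNA per cell cannot be told apart.

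Of the 10 genes, 2 passed the study's criterion, an unadjusted limma p below 0.05. Ddit4 was higher and Asns was lower in LKO livers. Across all tested genes 8.35% passed, 4.92% higher and 3.43% lower (832 and 581 genes, or 1127 and 316 with arrays scaled to their 75th percentile), so 1 gene in each direction among 10 is near the share of the whole array. No gene passed after Benjamini-Hochberg adjustment, with a smallest adjusted p of 0.132 over all genes. The median log2 difference of the 10 genes was -0.01, against -0.0035 over all tested genes, and 5 were higher and 5 lower. All values below are log2 intensities after quantile normalization, and differences are LKO minus Floxed. They can be compared between livers for a gene but not between genes, since each probe has its own brightness.

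**Figure D1:**
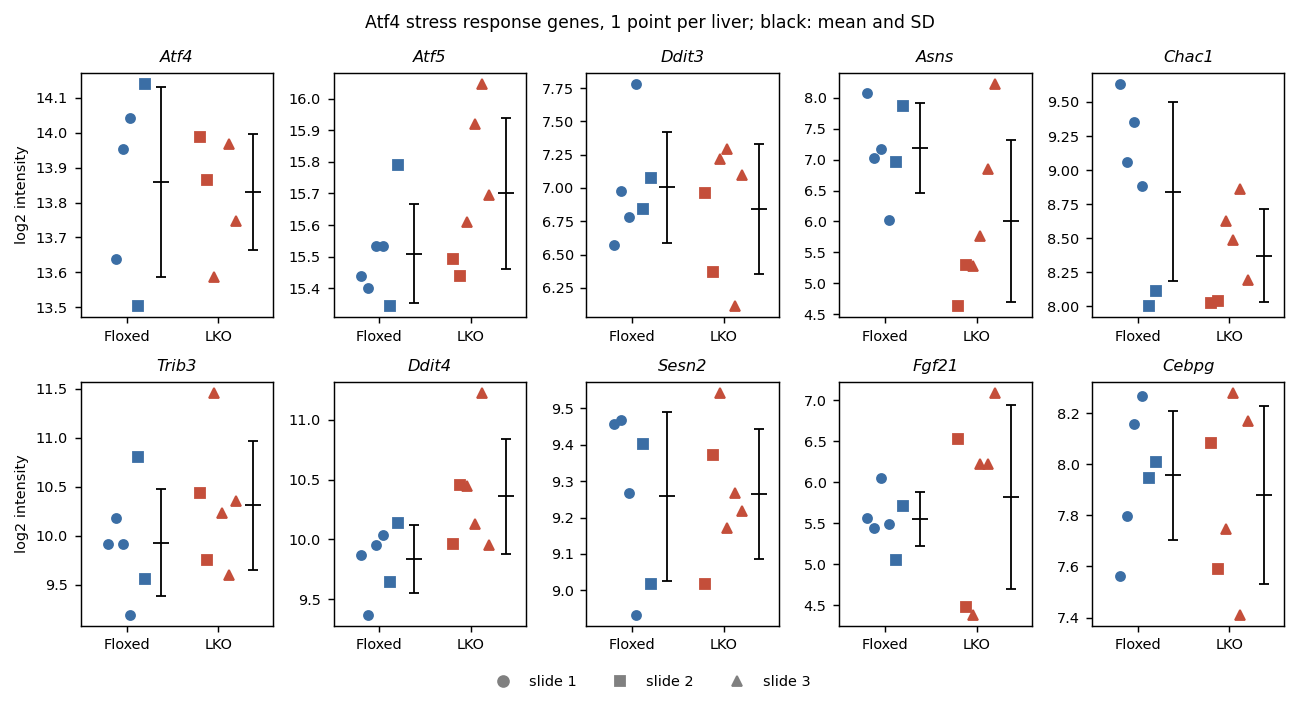
Log2 intensity (vertical axis) of each of the 10 genes in each liver, with Floxed mice in blue and LKO mice in red, the slide as the shape of the point, and the mean with its SD in black. Vertical axes differ between panels. Asns was low in 4 of 6 LKO livers and highest of all in LKO 6, and Fgf21 was spread more widely among LKO than among Floxed livers.

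Asns encodes asparagine synthetase, which makes asparagine from aspartate and glutamine and is a standard target of Atf4. Its lowest, median and highest values were 6.03, 7.09 and 8.07 in Floxed livers and 4.64, 5.53 and 8.22 in LKO livers. The groups overlapped. LKO 1 to 4 lay below every Floxed liver, LKO 5 lay inside the Floxed range at 6.85, and LKO 6 had the highest value of all 12. The mean was 2.26-fold lower in LKO livers, a log2 difference of -1.18 (SE 0.54, 95% interval -2.34 to -0.01, limma p = 0.0484 and adjusted p = 0.598, two-sided exact permutation p = 0.0866).

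The call for Asns was lost when any of 9 of the 12 livers was left out, while the difference stayed between -1.62 and -0.90. It was also lost under 75th percentile scaling and under another background correction (normexp), where the difference was -1.14 and -0.67. The Asns probe was dim, with a median intensity of 137 in Floxed and 46.3 in LKO livers, and the size of the fold varied with the background correction. With 1 liver left out, the largest difference came without LKO 6, where the call held, and the smallest without LKO 1, where it did not. On slide 2 alone the difference was -2.45, with Floxed livers at 6.96 and 7.86 and LKO livers at 4.64 and 5.29, and the gene was called with slide as a fixed term of the model but not with slide as a random term (-1.06). Those are the livers of LKO 1 and LKO 2, whose Phgdh signal was in the Floxed range. Without these 2 mice, the 4 LKO livers of slide 3 differed from Floxed by -0.65 and the gene was not called.

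Ddit4, also called REDD1, encodes an inhibitor of mTORC1, the kinase complex that couples growth to nutrients, and answers to glucocorticoids and hypoxia as well as to Atf4. Its lowest, median and highest values were 9.37, 9.91 and 10.14 in Floxed and 9.95, 10.29 and 11.23 in LKO livers. The groups overlapped only between 9.95 and 10.14. All 6 LKO livers lay above the Floxed median, 3 of them above every Floxed liver, and LKO 5 was the highest. The mean was 1.44-fold higher in LKO livers, a log2 difference of 0.53 (SE 0.21, 95% interval 0.08 to 0.97, limma p = 0.0247, adjusted p = 0.501, exact permutation p = 0.0346).

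For Ddit4 the difference was between 0.35 and 0.61 with any 1 liver left out, and the call was lost only without Floxed 2, the lowest liver (0.43). On slide 2 it was 0.31, and Ddit4 was not called with slide as a fixed term of the model but was called with slide as a random term (0.54). It was not called with the replicate number of the titles as a block. The 4 LKO livers of slide 3 alone differed from Floxed by 0.60, and the gene was called.

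**Figure D2:**
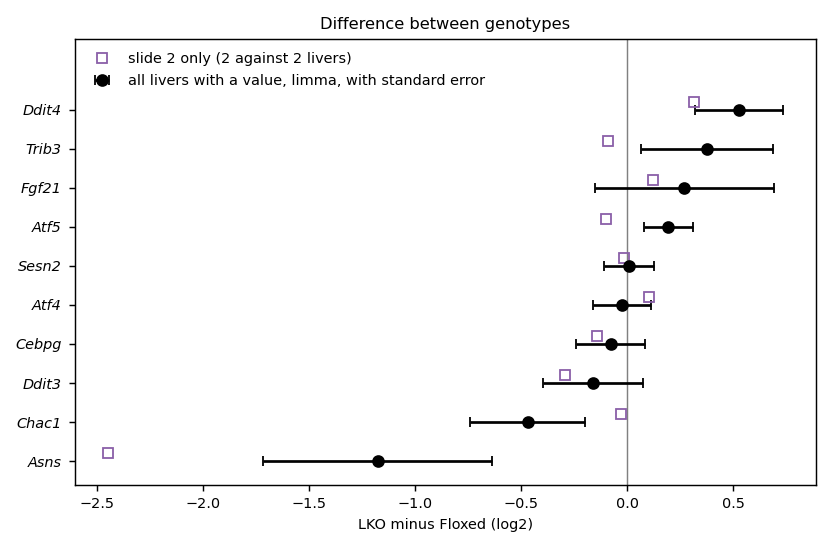
Difference between LKO and Floxed livers on the log2 scale (horizontal axis) for each gene, with black points for the limma estimate over all livers (10 with a value for Atf4) and its standard error, and open squares for the 2 against 2 livers of slide 2. Asns stood at -1.18 over all livers and at -2.45 on slide 2, and Ddit4 at 0.53 and 0.31.

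Among the transcription factors, Atf4 itself did not pass the test on either probe. Its brighter probe was marked as an outlier and left out on the arrays of Floxed 1 and LKO 4, so 5 livers of each genotype entered. Values ran from 13.50 over a median of 13.95 to 14.14 in Floxed and from 13.59 over 13.86 to 13.99 in LKO livers. The LKO livers lay wholly inside the Floxed range. The difference was -0.03 with a 95% interval of -0.33 to 0.28 (limma p = 0.859, exact permutation p = 0.865 over 252 arrangements). The second, dimmer probe had all 12 livers and differed by -0.07 (exact permutation p = 0.615). Its SD was 0.327 among Floxed and 0.0785 among LKO livers, and all 6 LKO livers lay below the Floxed median of 8.13.

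Atf5, a close relative of Atf4 that is also under translational control and is strongly expressed in liver, had values of 15.35, 15.49 and 15.79 (lowest, median, highest) in Floxed and 15.44, 15.65 and 16.04 in LKO livers. The groups overlapped, with 2 LKO livers of slide 3 above every Floxed liver and 5 of 6 above the Floxed median. The difference was 0.19 (SE 0.12, limma p = 0.118 and adjusted p = 0.754, exact permutation p = 0.141). It was -0.10 on slide 2. With only the LKO livers of slide 3 against all Floxed livers it was 0.31 and passed the test, and it also passed without Floxed 6 (0.25), while without LKO 5 it was 0.12 and did not pass.

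Ddit3 encodes CHOP, the factor that Atf4 induces under prolonged stress and that promotes cell death. It ran from 6.57 over 6.91 to 7.78 in Floxed and from 6.12 over 7.03 to 7.30 in LKO livers, and differed by -0.16 with a 95% interval of -0.67 to 0.35 (limma p = 0.508, exact permutation p = 0.558). The Floxed maximum belonged to 1 liver, Floxed 4, and 2 LKO livers lay below every Floxed liver. With 1 liver left out the difference ran from -0.25 to -0.0057, the latter without Floxed 4. Cebpg, a C/EBP protein that pairs with Atf4, ran from 7.56 over 7.98 to 8.27 in Floxed and from 7.41 over 7.92 to 8.28 in LKO livers. Its ranges were nearly the same, and the difference was -0.08 with an interval of -0.43 to 0.28 (limma p = 0.643, exact permutation p = 0.66).

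The remaining feedback and signalling genes did not pass the test. Trib3 encodes a pseudokinase that Atf4 and CHOP induce and that in turn restrains them and Akt signalling. It ran from 9.19 over 9.92 to 10.81 in Floxed and from 9.6 over 10.30 to 11.46 in LKO livers. The groups overlapped, and only LKO 3 lay above every Floxed liver. The difference was 0.38 (SE 0.31, limma p = 0.249, exact permutation p = 0.318), and on slide 2 it was -0.09. Without LKO 3 it was 0.15. Sesn2, a leucine-binding sestrin that holds back mTORC1, ran from 8.93 over 9.34 to 9.47 in Floxed and from 9.02 over 9.24 to 9.54 in LKO livers. Its difference was 0.01 with an interval of -0.25 to 0.26 (limma p = 0.956, exact permutation p = 0.972). Sesn2 and the brighter Atf4 probe varied least of the 10 genes, with 1.53-fold and 1.55-fold between the lowest and the highest liver.

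Chac1 encodes a cyclotransferase that breaks down glutathione and is one of the most inducible targets of the Atf4 and CHOP pathway. Its lowest, median and highest values were 8.0, 8.97 and 9.63 in Floxed and 8.02, 8.34 and 8.86 in LKO livers. The 4 Floxed livers of slide 1, at 8.88 to 9.63, lay above every LKO liver, while Floxed 5 and 6, at 8.0 and 8.12 on slide 2, lay beside LKO 1 and 2 at 8.02 and 8.04. The difference was -0.47 over all livers (SE 0.27, limma p = 0.107, exact permutation p = 0.149) and -0.03 on slide 2. It passed the test when Floxed 5 (-0.64) or Floxed 6 (-0.61) was left out, and it fell to -0.31 without Floxed 1 and to -0.37 without Floxed 3. The high values of Chac1 were those of slide 1, and outside slide 2 the slide and the genotype cannot be told apart.

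Fgf21, a hormone that the liver secretes in fasting and when protein or an amino acid is short, was spread more widely among LKO livers. Its lowest, median and highest values were 5.05, 5.53 and 6.05 in Floxed and 4.39, 6.23 and 7.09 in LKO livers. No LKO liver lay inside the Floxed range. LKO 1, 4, 5 and 6 were above it and LKO 2 and 3, at 4.48 and 4.39, were below it. The SD was 0.327 in Floxed and 1.12 in LKO livers, a description of 6 mice each for which no test of spread was run. The probe was dim, with intensities of 22.3 and 20.9 in LKO 2 and LKO 3. With normexp in place of the main background correction, the SE of the difference was 0.19 against 0.42, so the size of the spread depends on the processing. The means differed by 0.27 with a 95% interval of -0.64 to 1.18 (limma p = 0.535, exact permutation p = 0.589), so the interval includes a rise of more than 2-fold. With 1 liver left out the difference ran from 0.0159, without LKO 6, to 0.56, without LKO 3. On slide 2 the pair of LKO mice held 1 liver of each kind, at 6.52 and 4.48.

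The 3 other genes with a match to the element in their window, beside Asns, moved in no common direction. Chac1 was lower, and Trib3 and Fgf21 were higher in the mean, and none of these 3 passed the test.

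The genes were then compared with each other over the livers, since targets of 1 factor may vary together whether or not the genotypes differ. Of 45 pairs, 5 had an absolute Pearson r of at least 0.6, which is 11.1%, against 11.0% of all pairs of tested genes. The same 5 pairs had an unadjusted permutation p below 0.05, and none passed after adjustment over the 45 pairs, with a smallest adjusted p of 0.067. Positive r was found in 20 pairs and negative r in 25, and the median r was -0.03.

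**Figure D3:**
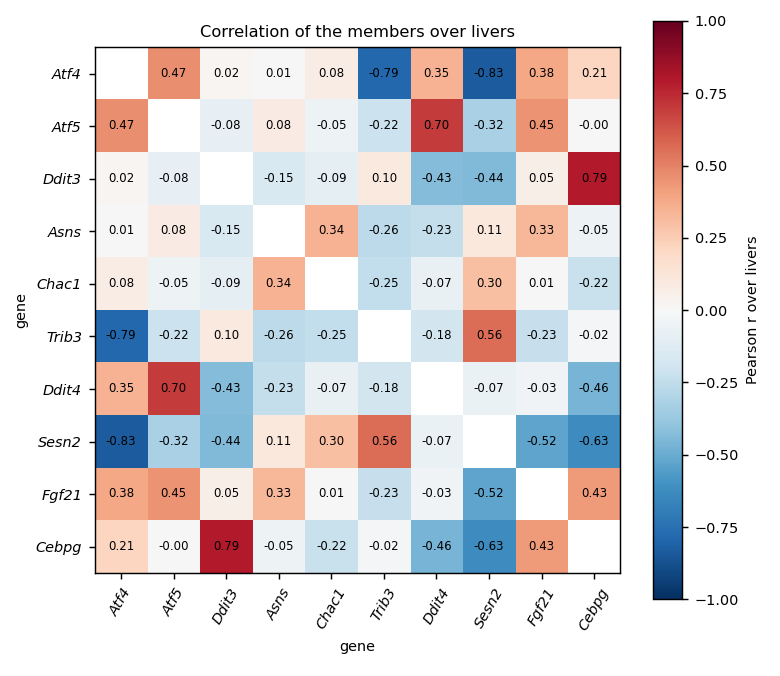
Pearson r over livers for each pair of the 10 genes, from blue (negative) to red (positive), with the brighter probe for Atf4 over 10 livers and all 12 livers otherwise. The strongest positive pair was Ddit3 with Cebpg at 0.792, and Atf4 was negative with Sesn2 and Trib3 at -0.829 and -0.787.

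The highest r was between the transcription factors Ddit3 and Cebpg, at 0.792 (permutation p = 0.00149, adjusted p = 0.067), with a Spearman rho of 0.734 (p = 0.00885). It was 0.714 within Floxed and 0.838 within LKO livers and 0.801 with slide means removed. Without the 2 livers farthest in Ddit3, LKO 5 and Floxed 4, r was 0.64. Of all tested genes, 9.45% had an absolute r of at least 0.6 with Ddit3 and 19.0% with Cebpg. Both genes also followed the brightness of the array before normalization. With the log2 75th percentile of the array, r was 0.774 for Cebpg (permutation p = 0.00318, rho 0.741 with p = 0.00801, 0.715 without the 2 farthest livers, 0.862 with slide means removed). For Ddit3 it was 0.68 (p = 0.0142, rho 0.608 with p = 0.0393, 0.664 without the 2 farthest, 0.847 with slide means removed). Adjusted over the 20 relations with array measures, these p were 0.0212 and 0.0569. Their part in the pair's r was not tested.

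Atf5 and Ddit4 had an r of 0.697 (permutation p = 0.0107, adjusted p = 0.12, rho 0.634 with p = 0.03), and LKO 5 was the highest liver in both. Without LKO 5 and LKO 4 it was 0.45, and with slide means removed it was 0.517 (permutation p = 0.181). Within the 6 Floxed livers it was 0.776, within the 6 LKO livers 0.52, and with slide and genotype means removed 0.6. Of all tested genes, 10.6% had an absolute r of at least 0.6 with Atf5 and 9.02% with Ddit4. The next 3 pairs, Trib3 with Sesn2 at 0.561 (p = 0.0553, rho 0.456 with p = 0.135, 0.114 without LKO 3 and Floxed 4), Atf4 with Atf5 at 0.466 over 10 livers (p = 0.176, rho 0.486 with p = 0.157, 0.379 without the 2 farthest) and Atf5 with Fgf21 at 0.451 (p = 0.141, rho 0.543 with p = 0.0713, 0.361 without the 2 farthest), had a permutation p above 0.05. With slide means removed, Atf4 with Atf5 was 0.848.

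The lowest r was between Atf4 and Sesn2, at -0.829 over the 10 livers with a value for the brighter Atf4 probe (permutation p = 0.00402, adjusted p = 0.0904, rho -0.866 with p = 0.00222). Atf4 and Trib3 followed at -0.787 (p = 0.00619, adjusted p = 0.0928, rho -0.77 with p = 0.0131). Livers with more Atf4 signal on this probe had less of these targets. With slide means removed, the values were -0.819 and -0.797, and without Floxed 5 and LKO 3, the livers farthest in Atf4, they were -0.787 and -0.594. Of the other 9 genes, these 2 had an absolute r of at least 0.6 with Atf4, as had 6.21% of all tested genes.

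The second Atf4 probe did not show the 2 negative relations at that strength. Over 12 livers its r was -0.437 with Sesn2 (permutation p = 0.157, rho -0.312 with p = 0.322) and -0.392 with Trib3 (p = 0.202, rho -0.524 with p = 0.0827). Without the 2 livers farthest on this probe, r was 0.0043 with Sesn2 and -0.432 with Trib3. With slide means removed, r was -0.541 and -0.364. The 2 probes of Atf4 followed each other at 0.459 over 10 livers (p = 0.186, rho 0.442 with p = 0.205), and at 0.819 with slide means removed. With arrays scaled to the 75th percentile in place of quantile normalization, the brighter probe gave -0.558 with Sesn2 and -0.66 with Trib3.

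**Figure D4:**
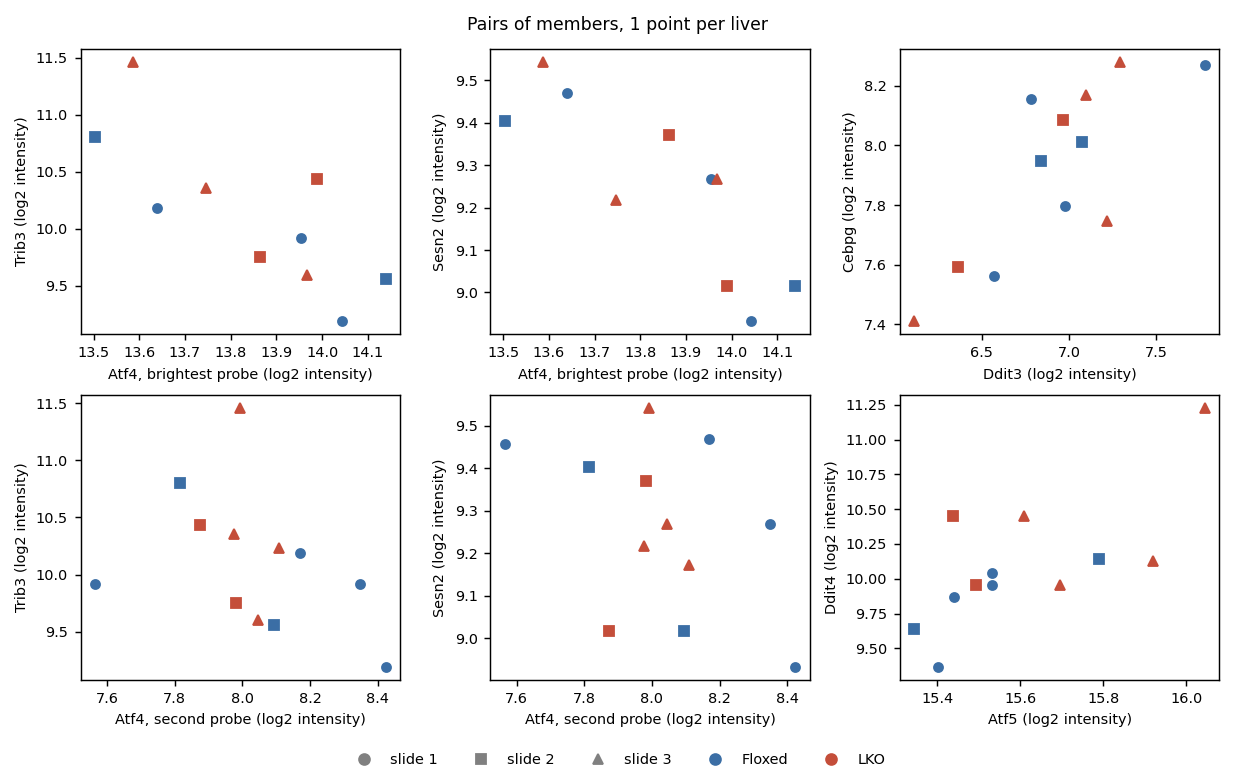
Log2 intensities of pairs of genes, 1 point per liver, with Floxed in blue and LKO in red and the slide as the shape. The upper row shows the brighter Atf4 probe against Trib3 and Sesn2 and Ddit3 against Cebpg, and the lower row shows the second Atf4 probe against the same 2 genes and Atf5 against Ddit4. The fall of Trib3 and Sesn2 with Atf4 (-0.787 and -0.829) was weaker on the second probe (-0.392 and -0.437).

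A list of pancreas acinar genes moved with the same genes. Of the cell type lists, only this one was correlated with the members over the livers. The adjusted p below, over the 20 relations with array measures, do not cover that choice. Of 23 genes listed, 7 were well above background on all arrays (Cel, Cela1, Amy2a5, Ctrb1, Ctrl, Clps and Sycn), Cela2a, Pnlip and Prss2, which encode an elastase, a lipase and a trypsinogen, were on none, and 1 of the 7, Cel, was called higher in LKO livers. The summed intensity of the 7 ran from 1480 to 2380 in Floxed and from 1770 to 2540 in LKO livers. Their mean deviation was highest in LKO 3, at 0.415, and its r was 0.831 with Trib3 (permutation p = 0.00124, adjusted p = 0.0211, rho 0.699 with p = 0.0139) and 0.763 with Sesn2 (p = 0.00211, adjusted p = 0.0211, rho 0.695 with p = 0.015). With Atf4 it was -0.782 (p = 0.00469, adjusted p = 0.0234, rho -0.83 with p = 0.0048). LKO 3 was the highest and Floxed 4 the lowest liver of the list mean, of Trib3 and of Sesn2. By summed intensity the livers ranked otherwise. Floxed 4, at 2380, was then the highest Floxed liver, and LKO 3, at 2430, lay below LKO 4 and LKO 6 (2530 and 2540). Without LKO 3 and Floxed 4 the r with Trib3, Sesn2 and Atf4 were 0.489, 0.593 and -0.763. With slide means removed they were 0.824, 0.815 and -0.814. The part of these few livers and of the acinar genes in the relations among Atf4, Trib3 and Sesn2 was not tested.

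Sesn2 and Cebpg had the third of the negative relations, with r = -0.626 (permutation p = 0.0318, adjusted p = 0.286, rho -0.663 with p = 0.022). It was -0.647 with slide means removed and -0.535 without Floxed 4 and LKO 3. An absolute r of at least 0.6 with Sesn2 was found in 15.3% of all tested genes. Sesn2 was also negative with the 75th percentile of the array, at -0.607 (p = 0.0373, adjusted p = 0.124, rho -0.733 with p = 0.00862, -0.73 without the 2 farthest livers, -0.584 with slide means removed), where Cebpg was positive.

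Neither Atf4 probe had a permutation p below 0.05 with Asns, Chac1 or Ddit3. The r of the brighter probe was 0.0068 with Asns, 0.0781 with Chac1 and 0.0217 with Ddit3, over 10 livers, with rho of 0.0061, 0.115 and 0.0545 and permutation p of 0.985, 0.825 and 0.952. With the second probe over 12 livers, r was -0.133 with Asns, 0.118 with Chac1 and 0.455 with Ddit3, rho was -0.049, 0.427 and 0.406, and the permutation p of r were 0.68, 0.715 and 0.134. Without the 2 farthest livers these r were 0.32, 0.826 and 0.0206, and with slide means removed they were -0.273, -0.513 and 0.417. Asns and Chac1 had an r of 0.345 with each other (permutation p = 0.273, rho 0.371 with p = 0.237). Asns had an absolute r of at least 0.6 with none of the other 9 genes, and with only 1.25% of all tested genes. The genes outside the list whose levels were most like the brighter Atf4 probe over 10 livers were Zmym4 (r = 0.927), Rnaseh1 (0.925), Aagab (0.902), Mettl6 (0.9) and Lzic (0.896). They were picked as the highest r among all tested genes with a symbol. With the second Atf4 probe their r were, in the same order, 0.0472, 0.583, 0.413, -0.124 and 0.319.

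Other genes of the pathway were described from 8 lists of the machinery upstream, the partners and further targets. Of their tested genes, 1 was called higher and 3 were called lower, which is 3.74%, against 8.35% of the array. Their median difference was -0.02.

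Upstream of Atf4, none of 17 kinases, phosphatase subunits and regulators of eIF2 was called, with 6 higher and 11 lower. None of 14 bZIP partners, 9 paralogs of the 10 genes, 12 tRNA synthetases of the Atf4 program and 5 receptors and co-receptors of FGF21 was called. Of 14 amino acid transporters, 11 were lower and 3 higher, with a median of -0.09 and none called. Slc7a11, which encodes the cystine transporter xCT, and Slc7a3, a cationic amino acid transporter, were not well above background on any array.

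In amino acid and one-carbon synthesis, 2 of 12 genes were called, both lower. Beside Phgdh itself there was Mthfd2, a mitochondrial folate enzyme, whose probe was also dim. It ran from 4.0 to 4.82 in Floxed and from 3.90 to 4.33 in LKO livers (log2 intensity). It differed by -0.34 (limma adjusted p = 0.483) and by -0.18 on slide 2, and was not called with slide as a fixed term.

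Among 24 further targets of Atf4 and CHOP, 1 was called higher and 1 lower. Bbc3, which encodes the pro-apoptotic protein PUMA and also answers to p53, ran from 8.61 over 9.40 to 10.23 in Floxed and from 9.95 over 10.32 to 10.91 in LKO livers. Its difference was 0.95 (SE 0.25, adjusted p = 0.307) and 0.53 on slide 2. Vegfa, an angiogenic factor with several other inducers, ran from 10.28 over 10.53 to 10.73 in Floxed and from 9.94 over 10.10 to 10.33 in LKO livers, with a difference of -0.42 (adjusted p = 0.257) and -0.31 on slide 2. The ranges of each gene overlapped narrowly, and neither gene was called with slide as a fixed term of the model.

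**Figure D5:**
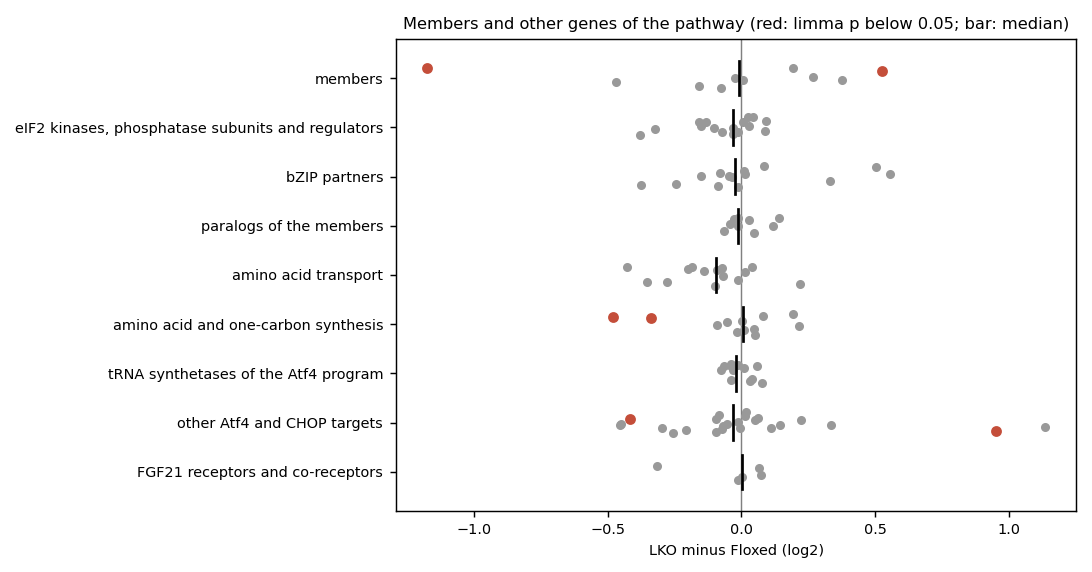
Difference between LKO and Floxed livers on the log2 scale (horizontal axis) for the 10 genes and for each of the 8 lists of other pathway genes, 1 point per gene, red where the limma p was below 0.05, with the median as a bar. The called genes were few in every list, 2 of 10 in the top row and 0 to 2 in each of the others.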

How the data were processed

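Total RNA of 12 livers was measured on Agilent mouse GE 4 × 44 K v2 arrays. Per the labels it was isolated with TRIzol and a Promega system, while the study's methods name the RiboPure kit. The authors deposited the intensity of each spot from Agilent Feature Extraction (9.5.1.1 per the labels, 10.7.1.1 per the file headers), with background and spatial trends removed and no normalization between arrays, and a table of quantile-normalized intensities. Here the processed intensity of non-control spots was put on the log2 scale, and the 12 arrays were brought to 1 distribution by quantile normalization. Outlier spots (0.298%) were then set missing, and spots of a probe were averaged. The filter kept probes with the mark for well above background on every array, in place of the detection p-value of the methods, and a gene was represented by its brightest probe. A RefSeq gene table of GRCm38.p6 named 26761 of 28389 probes with a RefSeq accession.

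Genotypes were compared with limma 3.58.1 (R 4.3.3) without covariates and called at an unadjusted p below 0.05, with Benjamini-Hochberg adjustment over all 16915 genes. The fit was tested on simulated data with independent noise and no slide effect, which cannot test the calls under this slide layout. Single genes were also compared by two-sided exact permutation over 924 arrangements of 6 against 6 livers. Correlations were tested by 100000 permutations (scipy 1.17.1). Replicates are separate mice, and their number limits the precision. The members, the lists and the rule for named genes were chosen with earlier results of these data known. Named were all members, Phgdh, up to 3 called genes per pathway list, the 5 genes most like Atf4, and the pairs with the 5 highest and 3 lowest r. Alternatives changed the scaling, signal column, filter, probe choice, blocks, threshold and test, and left out each array.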

Additional observations from a re-analysis of the deposited data

How the results depend on the processing

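The smallness of the groups and the slides, of which only slide 2 held both genotypes, limit these results. The count of called genes, 1413 in the report, was 2791 without the filter on dim probes, 317 with slide as a fixed block, 512 on slide 2 only, 2173 for the 4 LKO livers of slide 3 against all Floxed, 88 with an absolute log2 difference of at least 1, 0 at an adjusted p below 0.05, and 1 by the methods' t-test after Benjamini-Hochberg adjustment. With 75th percentile scaling, which moved the median of all genes by under 0.1, the split of calls was 1127 higher and 316 lower, against 832 and 581. The count of called members, 2 in the report, was 1 under 75th percentile scaling, normexp, no filter, the filter on 6 arrays, slide as a fixed or random block, slide 2 only, the threshold of 1 on the log2 difference and the methods' t-test. It was 0 at an adjusted p and by the adjusted t-test, and 0 to 3 with 1 liver left out. Titles share replicate numbers, and the animal numbers in them are adjacent within each pair, but the labels do not say that a pair is a litter, and livers of the same number did not all deviate together (r from -0.235 to 0.317), and 2 of 6 correlated best with their own number. With a replicate block, 1 member, Asns, was called, and Ddit4 was not.

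Asns lost its call under 75th percentile scaling (-1.14), normexp (-0.67), no filter (-1.18), the filter on 6 arrays (-1.18) and the random slide block (-1.06). Signs reversed in small differences. Atf4 was 0.0021 under 75th percentile scaling, 0.105 with the slide block and on slide 2, and -0.113 to 0.0457 with 1 liver left out. With the slide block and on slide 2, Atf5 was -0.101, Trib3 -0.0896 and Sesn2 -0.0158. With 1 liver left out, Sesn2 ran from -0.0583 to 0.0562 and Cebpg from -0.157 to 0.0162. The causes were not tested. Pairs with a permutation p below 0.05, 5 in the report, were 9 with slide means removed, 8 with slide and genotype means removed, and 3 with the second Atf4 probe. The second Atf4 probe, the ignoring of outlier flags for pairs, and the slide 3 comparison were chosen after seeing the data.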
